A study of Homo sapiens with 18 samples.

Results

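The clustered protocadherins are 56 rows of the expression table, out of 23399 genes in all, chosen by symbol alone: every alpha gene (PCDHA1 to PCDHA13, PCDHAC1 and PCDHAC2), beta gene (PCDHB) and gamma gene (PCDHGA, PCDHGB and PCDHGC), pseudogene rows included. The alpha cluster has 15 rows, the beta cluster 18 and the gamma cluster 23, and they lie one after the other on the plus strand of chromosome 5, between positions 140165721 and 140892544 of GRCh37. RNA-seq was performed on U2OS-MycER cells, an osteosarcoma cell line transduced with a retrovirus that encodes MycER, a fusion of Myc with the hormone-binding part of the estrogen receptor that 4-hydroxytamoxifen (OHT) activates. All cells, controls included, carry MycER. They were transfected with a pool of siRNAs against RAD21 (siRAD21), a core subunit of the cohesin ring, or with an siRNA against Renilla luciferase (siCtrl), and were given at the same time 400 nM OHT or ethanol. RNA was taken at 24 or 48 h. The 18 libraries, 3 in both siCtrl groups of 48 h (with and without OHT) and 2 in each of the other 6 groups, were made from rRNA-depleted total RNA. The paper's methods describe 2 biological replicates for RNA-seq. The labels do not say which libraries of a group came from separate cultures, and both siCtrl groups of 48 h hold 3. The p-values therefore measure the spread between these libraries, which may be technical in part.

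The values are exonic reads scaled to exon length and library depth (eRPKM, an RPKM over exons), and whole reads could be recovered from them for 22033 of the 22040 genes above 0. The depth was 9647501 to 12678599 reads per library. RAD21 stood at 93.1 ± 3.96 eRPKM (SD, n = 3) in siCtrl and 11.2 ± 0.105 eRPKM (SD, n = 2) in siRAD21 cells at 48 h, and at 70.7 ± 2.04 (n = 2) and 18.4 ± 0.366 eRPKM (n = 2) at 24 h, so the siRNA labels hold. The lowest RAD21 value of any siCtrl library was 66.4 eRPKM and the highest of any siRAD21 library 18.6 eRPKM. The siRAD21 libraries at 24 h differed by about sampling noise (chi-square per gene 1.03) and were kept as 2 samples. The 2 siRAD21 OHT libraries at 48 h differed by less than sampling noise (chi-square per gene 0.929) and were counted as 1 sample in means, with no SD. The tests kept both. With the pair averaged, each count of called members stayed within 1 of the count given, except in the interaction of siRNA and OHT at 48 h. Of the osteoblast and mesenchymal markers, VIM, SPARC, COL1A1, RUNX2 and ALPL had medians of 118, 72.9, 33.2, 4.58 and 2.52 eRPKM over the 18 libraries, COL1A2 was at or near 0 with a median of 0.0444 eRPKM, and the leukocyte marker PTPRC did not exceed 0.322 eRPKM.

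Clustered protocadherins are cell adhesion proteins with cadherin repeats outside the cell, best known from neurons, where each cell expresses its own combination of them and cells with the same combination recognize each other. Each member of the alpha and gamma clusters starts at a promoter and a large first exon of its own, which is spliced to constant exons shared by the whole cluster, whereas beta genes have a single exon and share none. The last members of the alpha and gamma clusters, called C-type, are used more uniformly than the others, which are chosen apparently at random in single neurons. Most promoters of the clusters carry a conserved sequence element to which CTCF binds, and cohesin together with CTCF forms loops between these promoters and distant enhancers.

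How the members were counted sets what their levels mean. The constant exons cover 2869 bases for alpha and 2177 bases for gamma, and they are part of the exon length by which the eRPKM values were divided. Reads in them were not given to every member, since the lowest alpha member had between 7 and 39 reads in a library and the lowest gamma member between 0 and 5. The eRPKM of alpha and gamma members is therefore too low against that of beta genes. Where levels of different members are compared, RPKM values over the member's own, unshared exon length were used instead and are called own-exon RPKM. The ratio of one member's levels between groups does not depend on this length, and neither do fold changes of recovered reads. Fold changes of the main test do, since a constant was added to the eRPKM before the logarithm was taken. For alpha and gamma members they are therefore smaller than they would be over the unshared exons alone. The filter of that test is a mean eRPKM, so alpha and gamma members met it less easily than beta genes. PCDHGB4 was listed at 0 in all 18 libraries. Its exons overlap those of PCDHGA8 over 2266 bases, so reads there would be ambiguous between the pair, and the row says nothing of its expression.

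The promoters themselves show how the clusters relate. RefSeq promoter windows (250 bases before to 50 after the start, GRCh38.p14) were given for 46 of the 56 members. For each cluster a motif was read off these sequences after they were seen and searched on both strands. A member was counted once if any of its windows held the motif, whereas the shares of all RefSeq windows count each window. TGTCGCT was in 10 of 13 alpha genes with a window, against 1.757% of all 35116 RefSeq windows. It was absent from the windows of PCDHA9, PCDHAC1 and PCDHAC2. GGTGGCGCT was in 12 of 13 beta genes with a window, against 0.501% of all windows, and was absent from PCDHB1. GNCGCTGT, where N is any base, was in 17 of 20 gamma genes with a window, against 4.346% of all windows. It was absent from PCDHGB3, PCDHGB7 and PCDHGA11. All 3 motifs share the letters GCT, so that they can overlap. TGTCGCT was also found in 3 gamma genes and 1 beta gene, and GNCGCTGT in 5 alpha genes and 1 beta gene. The beta motif was in none of the alpha and gamma genes. The shorter CGCTGT was searched as well and was in 11.2% of all windows, and in 7 alpha, 1 beta and 17 gamma genes. The part of the window around the motif, in capitals, is printed 5′ to 3′ on the plus strand for members whose values carry the results below: 3 alpha and 3 beta genes, then 3 gamma genes of types A and B and 1 of type C.
PCDHA4 (chr5:140806974-140807016): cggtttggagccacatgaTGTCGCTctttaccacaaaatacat
PCDHA6 (chr5:140827892-140827934): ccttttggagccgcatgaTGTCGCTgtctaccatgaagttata
PCDHA12 (chr5:140875239-140875281): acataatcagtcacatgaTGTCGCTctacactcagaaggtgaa
PCDHB2 (chr5:141094537-141094581): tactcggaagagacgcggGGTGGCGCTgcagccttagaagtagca
PCDHB5 (chr5:141135172-141135205): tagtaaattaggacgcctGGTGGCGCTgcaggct
PCDHB14 (chr5:141223256-141223300): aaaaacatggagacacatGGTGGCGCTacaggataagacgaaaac
PCDHGB1 (chr5:141350021-141350064): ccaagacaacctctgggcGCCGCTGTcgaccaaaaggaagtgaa
PCDHGA4 (chr5:141354956-141354999): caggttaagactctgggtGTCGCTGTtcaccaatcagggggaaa
PCDHGB5 (chr5:141397859-141397902): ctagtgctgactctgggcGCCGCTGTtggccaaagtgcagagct
PCDHGC3 (chr5:141475876-141475919): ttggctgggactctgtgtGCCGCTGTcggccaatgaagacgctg
Among the members printed, PCDHB2, PCDHB5 and PCDHB14 share the beta motif, and PCDHGC3 shares the gamma motif with PCDHGB1, PCDHGA4 and PCDHGB5. A match is a description of these letters and was not tested against binding or against the effect of siRAD21.

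In siCtrl cells at 48 h all 3 clusters were read. The beta cluster summed to 97.4, 85.2 and 98.5 own-exon RPKM in the 3 libraries, the alpha cluster to 47.9, 50.2 and 57.0 and the gamma cluster to 54.4, 41.3 and 47.5. PCDHB5 was the most abundant beta gene, at 36.9, 33.6 and 36.8 eRPKM and 38.2% of the cluster's sum, ahead of PCDHB8 at 10.7, 8.70 and 10.3 eRPKM and PCDHB14 at 8.93, 8.94 and 8.79 eRPKM. The ranges of PCDHB8 and PCDHB14 overlapped, as did those of PCDHB14 and PCDHB11 (8.10, 5.34 and 7.26 eRPKM). In the gamma cluster PCDHGC3 led with 17.7, 12.2 and 13.0 own-exon RPKM, which was 29.9% of the sum, followed by PCDHGB1 with 7.24, 6.23 and 6.96. The other C-type gamma genes were low, with 23, 22 and 20 reads for PCDHGC4 and 31, 32 and 36 reads for PCDHGC5.

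The alpha cluster was more even. PCDHA6 stood at 9.17, 9.05 and 10.5 own-exon RPKM, PCDHA11 at 6.24, 7.38 and 7.11 and PCDHA12 at 5.62, 5.03 and 7.11. The C-type genes PCDHAC1, with 4.63, 4.47 and 5.63, and PCDHAC2, with 3.81, 4.94 and 5.72, had overlapping ranges. Only 23 of the 56 members, 7 alpha, 12 beta and 4 gamma, had a mean of at least 1 eRPKM and entered the main test (limma on log2(eRPKM + 0.5), 14993 genes, called at an adjusted p under 0.05 and a log2 fold change past 0.5). The others were followed in the recovered reads with limma-voom, which covered 55 members among 22033 genes. Of these, PCDHB1 never had more than 5 reads and was left out of medians and counts of signs, so that 54 members remained, 15 alpha, 17 beta and 22 gamma.

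RAD21 silencing for 48 h split the clusters. Most alpha members were upregulated, the most strongly PCDHA12, and 16 of the 19 gamma members of types A and B with over 5 reads were downregulated, while the other 3 also lay below 0. Beta members went both ways, and PCDHB2 was upregulated more than any other member. In the main test 8 members rose and 5 fell of the 23 tested, where 12.6% of all genes tested were called higher and 11.2% lower. Of those called, PCDHA5, PCDHB6, PCDHGA4 and PCDHGB5 had means of 1.02, 1.14, 1.03 and 1.09 eRPKM over all libraries. They passed the filter of 1 eRPKM only through groups in which they were high. Their calls, here and in the other comparisons, are therefore not independent of it. Counts in the recovered reads do not use this filter. In the recovered reads 9 of 15 alpha members rose and 1 fell, 3 of 18 beta members rose and 6 fell, and 1 of 22 gamma members rose and 16 fell, where 13.0% of all genes were called higher and 10.1% lower. The median log2 fold change was 0.65 for alpha, -0.44 for beta and -1.42 for gamma, beside -0.007 over all genes with reads. These are counts and medians, and the clusters were not tested against each other. The reads come from whole cultures, in which fewer cells with a transcript and less of it per cell cannot be told apart.

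**Figure D1:**
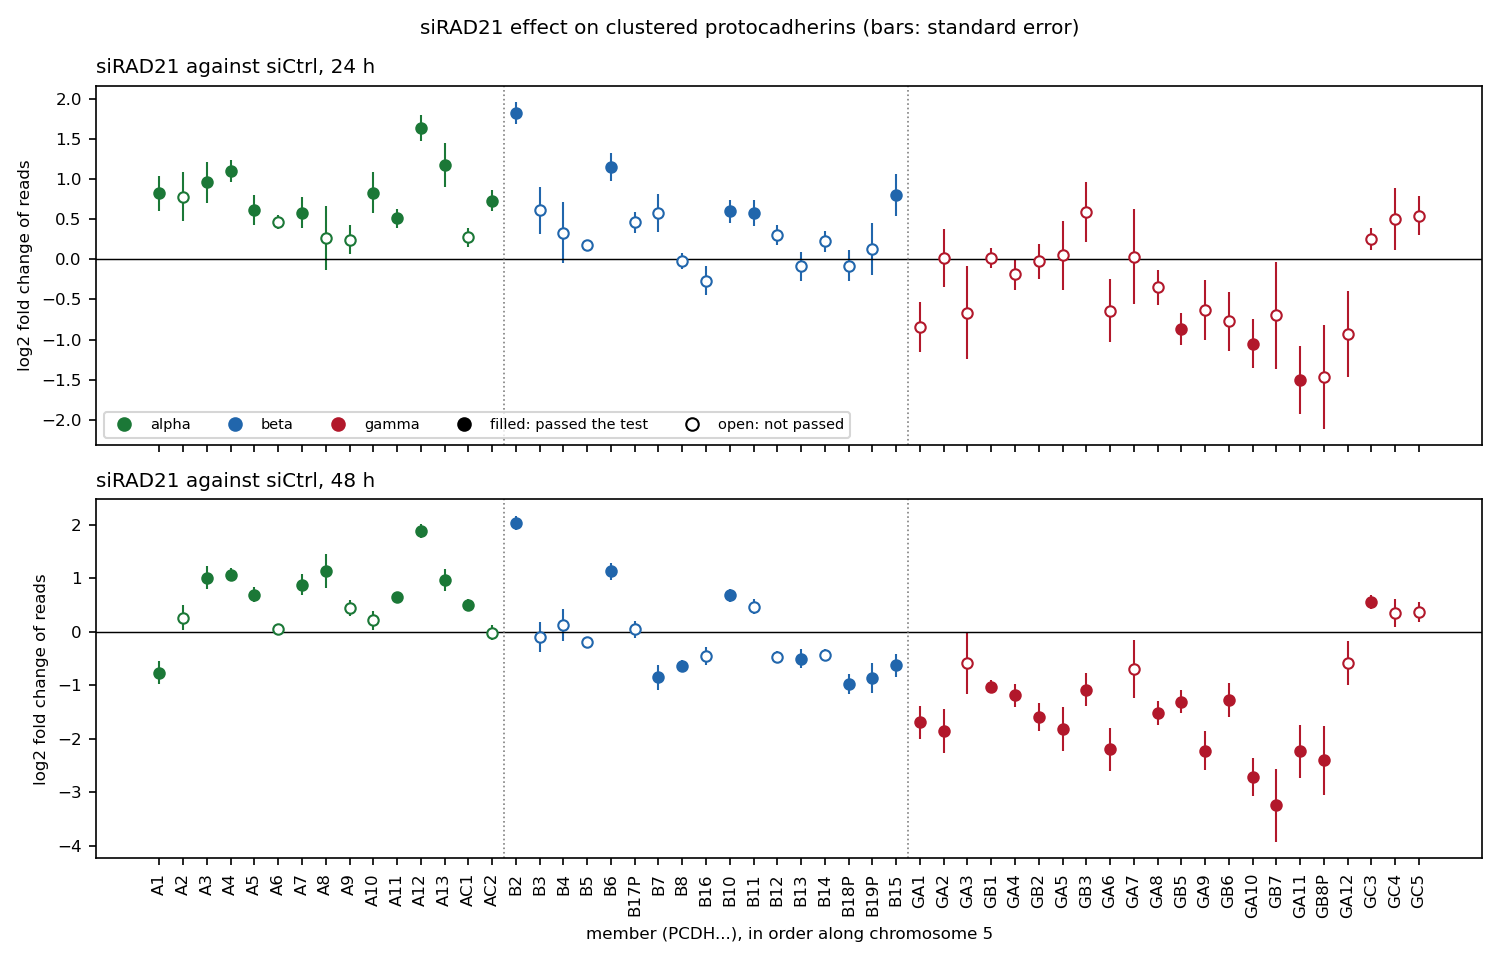
Log2 fold change of recovered reads (vertical axis, limma-voom, bars are standard errors) of the 54 members with over 5 reads in some library, in their order along chromosome 5 (horizontal axis), for siRAD21 against siCtrl at 24 h (top) and 48 h (bottom). Filled points passed the test. At 48 h the gamma A and B points all lie below 0, from -3.25 to -0.58, while the 3 gamma C-type points and 13 of 15 alpha points lie above it.

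Among the alpha genes, PCDHA12 had 2.62, 2.34 and 3.31 eRPKM in the siCtrl libraries and 10.2 and 10.1 eRPKM in the siRAD21 libraries at 48 h. The groups were far apart, and the log2 fold change was 1.72 ± 0.16, adjusted p = 4.46e-07 (SE, limma). PCDHA4 went from 1.74, 2.22 and 2.47 to 4.36 and 4.60 eRPKM (0.92 ± 0.13, adjusted p = 2.63e-05). PCDHA11 went from 3.33, 3.94 and 3.79 to 5.86 and 5.68 eRPKM (0.58 ± 0.12, adjusted p = 9.12e-04), and PCDHA5 from 1.16, 1.22 and 1.31 to 1.98 and 2.01 eRPKM (0.53 ± 0.13, adjusted p = 0.0032). In none of these 4 genes did the siCtrl and siRAD21 libraries overlap. PCDHA6, the most abundant alpha gene, stayed within the spread, with 4.22, 4.16 and 4.84 eRPKM against 4.51 and 4.56 eRPKM (0.04 ± 0.09, adjusted p = 0.73).

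The C-type alpha genes differed from PCDHA12 in size. PCDHAC1 had 2.40, 2.32 and 2.91 eRPKM in siCtrl and 3.57 and 3.64 eRPKM in siRAD21 cells, groups that did not overlap, but its log2 fold change of 0.44 ± 0.10, adjusted p = 0.0022 was under the threshold of 0.5 (it was called in the recovered reads, at 0.50 ± 0.11). PCDHAC2 did not change detectably, with 2.03, 2.63 and 3.04 against 2.51 and 2.51 eRPKM (-0.01 ± 0.14, adjusted p = 0.95). Below the filter, PCDHA3, PCDHA7, PCDHA8 and PCDHA13 rose in the recovered reads by 1.01, 0.88, 1.13 and 0.96 on the log2 scale. PCDHA1, the first gene of the cluster, was the 1 alpha member that fell, from 55, 53 and 50 reads to 40 and 25 reads (-0.77 ± 0.21, adjusted p = 0.0052, voom), after a rise at 24 h, from 27 and 33 to 60 and 53 reads (0.82 ± 0.22, adjusted p = 0.012, voom). Another annotated transcript overlaps its exons over 2719 bases, and reads of the 2 cannot be told apart. PCDHA6, PCDHA7 and PCDHA8 share 28.0% to 33.2% of their 50-base stretches with other places in or near the clusters, the only part of the genome searched.

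In the beta cluster 3 genes were upregulated, and most of those downregulated lie further along the chromosome. PCDHB2 had 2.71, 2.49 and 3.77 eRPKM in siCtrl and 11.9 and 12.6 eRPKM in siRAD21 cells, the largest rise of any member (1.88 ± 0.14, adjusted p = 5.44e-08). PCDHB2 shares 1796 bases with the antisense gene PCDHB1-AS1, and since the library kit does not mark the strand, reads of either gene would be counted here. PCDHB6 rose from 1.05, 1.02 and 1.22 to 2.54 and 2.30 eRPKM (0.87 ± 0.13, adjusted p = 4.94e-05), and PCDHB10 from 3.05, 2.45 and 3.27 to 4.50 and 4.84 eRPKM (0.60 ± 0.12, adjusted p = 5.29e-04). In all 3 genes the groups were separate, and without siCtrl 48 h replicate 2 the change of PCDHB10 came to the fold threshold (0.50) and was not called. Of the 50-base stretches, 21.0% in PCDHB2, 14.0% in PCDHB6 and 31.5% in PCDHB10 recur elsewhere in or near the clusters. PCDHB11, beside PCDHB10, was at 8.10, 5.34 and 7.26 against 9.50 and 9.23 eRPKM (0.43 ± 0.19, adjusted p = 0.068), without overlap but past neither threshold.

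PCDHB8 fell from 10.7, 8.70 and 10.3 to 6.29 and 6.36 eRPKM (-0.60 ± 0.10, adjusted p = 1.01e-04), and 47.0% of its 50-base stretches recur elsewhere in or near the clusters. The pseudogene row PCDHB18P fell from 3.50, 4.58 and 5.22 to 2.75 and 1.77 eRPKM (-0.85 ± 0.17, adjusted p = 5.68e-04). PCDHB5, the most abundant member of all, had 36.9, 33.6 and 36.8 against 30.1 and 32.5 eRPKM, no overlap, and a change of -0.19 ± 0.05, adjusted p = 0.0069, which passed on p and not on size. PCDHB12 and PCDHB14, towards the end of the cluster, had -0.43 and -0.41 and were not called either. In the reads, PCDHB7, PCDHB13, PCDHB15 and PCDHB19P fell as well, by 0.85, 0.50, 0.63 and 0.87 on the log2 scale, while PCDHB17P gave 3.19, 3.15 and 3.35 against 3.65 and 3.01 eRPKM (0.03 ± 0.13, adjusted p = 0.84). Across the 17 beta members the change went down with the order along the chromosome (Pearson r -0.60, Spearman rho -0.63), and across the 15 alpha and 22 gamma members the Pearson r was 0.24 and 0.22. These describe members that share libraries and are no test.

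In the gamma cluster the A and B genes lay below 0 at 48 h and the C-type genes above it. Of the C-type genes only PCDHGC3 was called. PCDHGB1 had 3.82, 3.29 and 3.68 eRPKM in siCtrl and 1.73 and 1.78 eRPKM in siRAD21 cells (-0.86 ± 0.11, adjusted p = 1.75e-05). PCDHGA4 fell from 2.27, 1.70 and 1.59 to 0.817 and 0.770 eRPKM (-0.85 ± 0.16, adjusted p = 3.85e-04), and PCDHGB5 from 2.26, 1.33 and 1.76 to 0.691 and 0.697 eRPKM (-0.92 ± 0.15, adjusted p = 1.23e-04). None of these ranges overlapped. In the reads 16 of 19 A and B members fell and the other 3, PCDHGA3, PCDHGA7 and PCDHGA12, had between -0.70 and -0.58. PCDHGB2 went from 79, 49 and 78 to 27 and 19 reads (-1.59 ± 0.26, adjusted p = 4.86e-05, voom) and PCDHGA10 from 58, 54 and 74 to 14 and 6 reads (-2.72 ± 0.36, adjusted p = 4.27e-06, voom). The pseudogene PCDHGB8P, counted among the 16, had 8, 5 and 9 reads in siCtrl libraries and 1 and 1 in siRAD21 libraries. Its call and its place in the medians rest on few reads, and the size of its change is not given.

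The C-type gamma genes lie behind the A and B genes and next to the constant exons. PCDHGC3 had 9.94, 6.86 and 7.32 eRPKM in siCtrl and 12.0 and 11.3 eRPKM in siRAD21 cells, with all siRAD21 values above the siCtrl values (0.52 ± 0.16, adjusted p = 0.013). This call was close to the threshold: without siCtrl 48 h replicate 2 the change was 0.43 (adjusted p = 0.052), without siCtrl 48 h replicate 3 it was 0.47, and without siRAD21 48 h replicate 1 it was 0.48 (adjusted p = 0.083). PCDHGC4 had 23, 22 and 20 reads against 34 and 24 (0.35 ± 0.27, adjusted p = 0.32, voom), and PCDHGC5 31, 32 and 36 against 45 and 44 (0.37 ± 0.19, adjusted p = 0.12, voom), neither past the test. PCDHGC3 made up 60.0% of the gamma sum in siRAD21 cells, against 29.9% in siCtrl cells. Over the same comparison the gamma A and B sum fell from a mean of 31.4 to 11.2 own-exon RPKM.

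**Figure D2:**
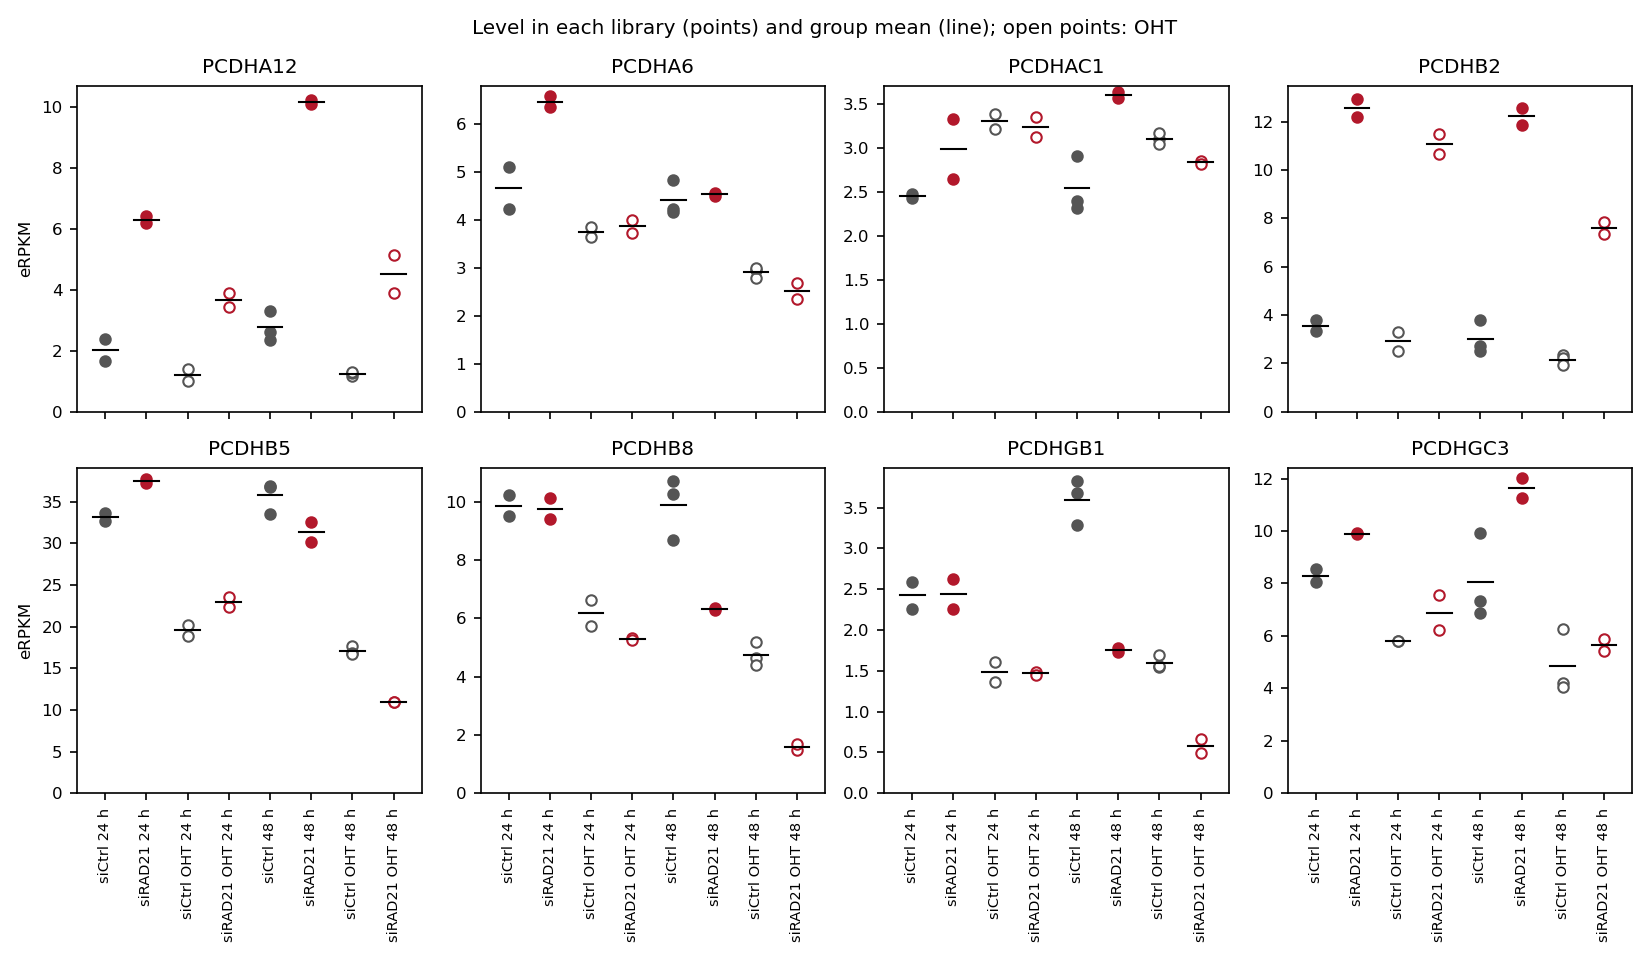
Level in eRPKM (vertical axes, starting at 0) of 8 members in each of the 18 libraries, by group (horizontal axes). Points are libraries, black lines group means, red is siRAD21, grey siCtrl, and open points are OHT-treated. PCDHB2 lies at 11.9 and 12.6 eRPKM in siRAD21 cells at 48 h, above every siCtrl library, and PCDHGB1 has its highest values, 3.82, 3.29 and 3.68 eRPKM, in siCtrl cells at 48 h.

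At 24 h of RAD21 silencing the rise of the alpha genes and of PCDHB2 was already present, whereas few gamma members had fallen. In the main test 5 members rose and 1 fell of 23, where 5.83% of all genes tested were called higher and 2.60% lower. PCDHB2 had 3.79 and 3.32 eRPKM in siCtrl and 12.9 and 12.2 eRPKM in siRAD21 cells (1.69 ± 0.15, adjusted p = 2.81e-06), and PCDHA12 1.67 and 2.39 against 6.41 and 6.18 eRPKM (1.44 ± 0.17, adjusted p = 3.08e-05). PCDHA4 rose by 0.92 ± 0.14, PCDHB6 by 0.87 ± 0.14 and PCDHAC2 by 0.64 ± 0.15, a call that was lost without siCtrl 24 h replicate 1 (adjusted p = 0.053) or siRAD21 24 h replicate 1 (adjusted p = 0.054). All 15 alpha members were above 0 in the reads, 10 of them past the test, where 6.04% of all genes were called higher, and their median was 0.73. The beta members had a median of 0.33 with 5 of 18 called higher and 0 lower.

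PCDHGB5 was the gamma gene that fell at 24 h, from 1.65 and 1.58 to 0.893 and 0.871 eRPKM (-0.62 ± 0.16, adjusted p = 0.013). This call was lost without siCtrl 24 h replicate 1 (adjusted p = 0.070), siRAD21 24 h replicate 1 (adjusted p = 0.061) or siRAD21 24 h replicate 2 (adjusted p = 0.070), and with a pseudocount of 1 the change was -0.48. PCDHGA10 and PCDHGA11 fell in the reads, by 1.05 and 1.51, with 2.32% of all genes called lower, and the median of the A and B members was -0.64. PCDHGB1 had 2.59 and 2.26 eRPKM in siCtrl and 2.25 and 2.63 eRPKM in siRAD21 cells, overlapping ranges, with a change of 0.01 ± 0.12, adjusted p = 0.97, whose sign turned under median centring and quantile normalization. The C-type PCDHGC3 had 8.54 and 8.07 against 9.94 and 9.88 eRPKM (0.24 ± 0.18, adjusted p = 0.35).

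The difference between the siRAD21 effect at 48 h and at 24 h was tested directly, and 7 of 23 members had a lower effect at 48 h and none a higher one, where 3.85% of all genes tested were called higher and 6.86% lower. They were PCDHGB1 (-0.87 ± 0.17, adjusted p = 0.0022), PCDHB18P (-0.78 ± 0.25, adjusted p = 0.036), PCDHGA4, PCDHB12, PCDHAC2, PCDHB14 and PCDHB8, the last 5 between -0.73 and -0.59. PCDHA12, with 0.28 ± 0.23, and PCDHB2, with 0.19 ± 0.20, were not called. The siCtrl reference itself changed with time, in the same genes in part: between 24 and 48 h 5 of 23 members rose in siCtrl cells, namely PCDHA5, PCDHB10, PCDHB12, PCDHB14 and PCDHB18P, where 5.53% of all genes tested were called higher and 6.91% lower, and PCDHB17P fell, from 4.40 and 5.43 to 3.19, 3.15 and 3.35 eRPKM (-0.53 ± 0.13, adjusted p = 0.0037), a call lost without siCtrl 24 h replicate 2 (-0.39, adjusted p = 0.059). PCDHB12 rose the most, from 3.57 and 3.93 to 6.54, 5.39 and 6.12 eRPKM (0.61 ± 0.12, adjusted p = 0.0012). In the reads 12 of 22 gamma members rose, where 6.95% of all genes were called higher, with a gamma median of 0.69. Both tests share the siCtrl libraries. The 7 calls of the time difference fell to between 2 and 4 when siCtrl 24 h replicate 1, siCtrl 48 h replicate 2 or 3, or any of the 4 siRAD21 libraries was left out, and the 6 calls in siCtrl cells fell to 3 without siCtrl 48 h replicate 3.

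Summed over members, the alpha cluster went from 47.9, 50.2 and 57.0 own-exon RPKM in siCtrl to 87.6 and 84.7 in siRAD21 cells at 48 h, which was 167% of the siCtrl mean, and at 24 h it was at 171%. No siRAD21 library overlapped with a siCtrl library at either time. The beta sum was 91.0 and 91.1 in siRAD21 cells at 48 h, within the siCtrl range of 97.4, 85.2 and 98.5, with higher PCDHB2, PCDHB6 and PCDHB10 beside lower values of other genes. The gamma A and B sum went from 34.6, 27.1 and 32.5 to 12.1 and 10.2 own-exon RPKM, 35.6% of siCtrl, against 78.7% at 24 h. The gamma C-type sum went from 19.8, 14.2 and 15.0 to 24.1 and 22.6, 143% of siCtrl. These sums describe the libraries and carry no test.

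**Figure D3:**
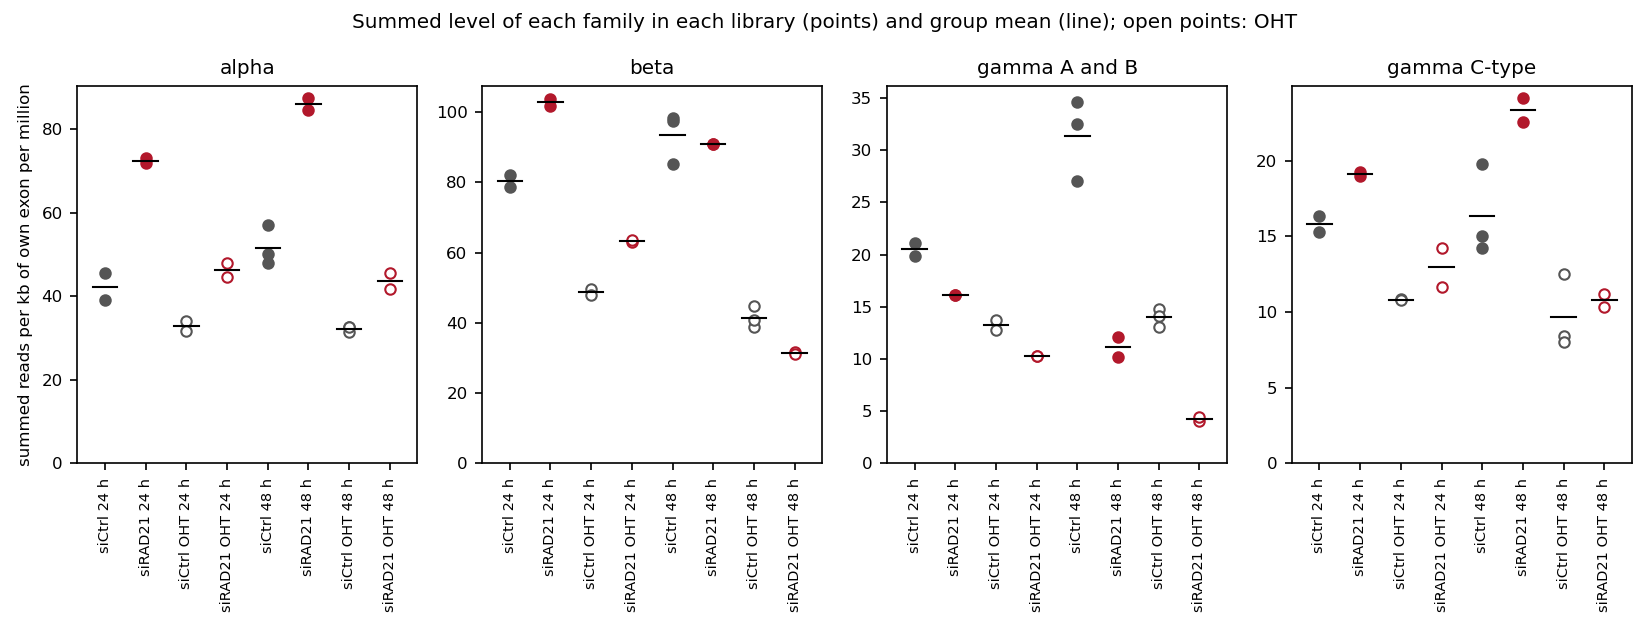
Summed own-exon RPKM (vertical axes, starting at 0) of the alpha cluster, the beta cluster, the gamma A and B genes and the gamma C-type genes in each library (points, with group means as lines), red for siRAD21, grey for siCtrl and open for OHT. The gamma A and B sum is lowest in siRAD21 OHT cells at 48 h, at 4.09 and 4.46, and the alpha sum highest in siRAD21 cells at 48 h, at 87.6 and 84.7.

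Under MycER activation the siRAD21 effect had the same leading genes, though fewer alpha members were called higher at 48 h than without OHT. At 48 h, siRAD21 OHT against siCtrl OHT cells, 3 of 23 members rose and 10 fell, where 8.47% of all genes tested were called higher and 7.74% lower. The rising members were PCDHB2, with 2.33, 2.20 and 1.93 eRPKM in siCtrl OHT and 7.86 and 7.35 eRPKM in siRAD21 OHT cells (1.61 ± 0.14, adjusted p = 4.66e-07), PCDHA12, with 1.18, 1.27 and 1.28 against 3.90 and 5.14 eRPKM (1.51 ± 0.16, adjusted p = 2.86e-06), and PCDHA11 (0.54 ± 0.12, adjusted p = 0.0024), whose change was 0.47 and not called without siCtrl OHT 48 h replicate 1. The groups did not overlap in any of them. PCDHB8 fell the most, from 5.19, 4.63 and 4.42 to 1.49 and 1.69 eRPKM (-1.33 ± 0.10, adjusted p = 1.02e-07), and PCDHB5 fell from 17.7, 16.8 and 16.7 to 10.9 and 10.9 eRPKM (-0.62 ± 0.05, adjusted p = 3.88e-07). PCDHGB1 fell by 0.97 ± 0.11, PCDHGA4 by 0.62 ± 0.16 and PCDHGB5 by 0.90 ± 0.15 on the log2 scale, and the other 5 that fell, PCDHB12, PCDHB13, PCDHB14, PCDHB16 and PCDHB18P, are beta rows.

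At 48 h in the reads, 3 of 15 alpha members rose and 1 fell, and 1 of 18 beta members rose and 8 fell. The medians were 0.26 and -0.65, against 0.65 and -0.44 without OHT. All 19 gamma A and B members lay below 0 here too, 14 of them past the test, where 8.26% of all genes were called higher and 7.27% lower. PCDHGC3 was at 0.24 ± 0.17, adjusted p = 0.31, while PCDHGC4 and PCDHGC5 lay below 0, between -0.55 and -0.37, and were not called. In siRAD21 OHT cells at 48 h, 8 of the 19 A and B members had at most 3 reads in each library, so their fitted changes depend on few reads. PCDHGA10 had 23, 9 and 14 reads in siCtrl OHT and 0 and 1 in siRAD21 OHT libraries. At 24 h 4 of 23 members rose and 0 fell, where 3.74% of all genes tested were called higher and 2.73% lower: PCDHB2 (1.77 ± 0.15, adjusted p = 2.18e-06), PCDHA12 (1.29 ± 0.17, adjusted p = 1.04e-04), PCDHB11 and PCDHA4. The latter pair was at 0.64 and 0.56, and the count fell to 2 without siCtrl OHT 24 h replicate 2. PCDHA4 was not called without siRAD21 OHT 24 h replicate 1 either (0.49), and leaving out any 1 of 14 libraries took PCDHB11 to an adjusted p between 0.051 and 0.21. Across the 54 members, the changes without and with OHT, which share no library, correlated with r = 0.86 at 48 h (rho = 0.88) and r = 0.86 at 24 h (rho = 0.80), a description over members of the same libraries.

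OHT lowered most members of all 3 clusters in siCtrl cells. At 48 h 19 of 23 members fell and none rose, where 7.78% of all genes tested were called higher and 10.1% lower. PCDHB11 fell the most, from 8.10, 5.34 and 7.26 to 2.78, 1.43 and 1.67 eRPKM (-1.61 ± 0.17, adjusted p = 3.07e-06). PCDHB5 fell from 36.9, 33.6 and 36.8 to 17.7, 16.8 and 16.7 eRPKM (-1.04 ± 0.05, adjusted p = 1.11e-09), PCDHA12 from 2.62, 2.34 and 3.31 to 1.18, 1.27 and 1.28 eRPKM (-0.89 ± 0.14, adjusted p = 9.90e-05) and PCDHGB1 from 3.82, 3.29 and 3.68 to 1.69, 1.55 and 1.56 eRPKM (-0.96 ± 0.10, adjusted p = 2.62e-06). In each, all OHT values lay below all values without OHT. PCDHGC3 had 6.28, 4.21 and 4.06 eRPKM with OHT and also fell (-0.68 ± 0.15, adjusted p = 0.0012).

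The members not called were PCDHB2, PCDHA5, PCDHAC2 and PCDHAC1. PCDHB2 had 2.33, 2.20 and 1.93 eRPKM with OHT (-0.38 ± 0.12, adjusted p = 0.018). PCDHAC1 was the single member above 0 among the 54 in the reads, with 2.40, 2.32 and 2.91 eRPKM without and 3.10, 3.17 and 3.05 eRPKM with OHT (0.25 ± 0.09, adjusted p = 0.032). In the reads 11 of 15 alpha, 16 of 18 beta and 17 of 22 gamma members fell, where 10.8% of all genes were called lower, and the medians were -0.76, -1.26 and -1.12, beside -0.018 over all genes. At 24 h 12 of 23 members fell and none rose, where 3.68% of all genes tested were called higher and 5.10% lower. PCDHB11 was again the lowest, with 4.83 and 5.93 against 2.14 and 2.42 eRPKM (-1.08 ± 0.21, adjusted p = 0.0019), and PCDHAC1 had 2.43 and 2.48 against 3.39 and 3.22 eRPKM (0.37 ± 0.11, adjusted p = 0.027). Without siCtrl OHT 24 h replicate 2 the count at 24 h was 7.

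OHT also lowered most members in RAD21-silenced cells. At 48 h 20 of 23 members fell and none rose, where 12.4% of all genes tested were called higher and 16.2% lower, and at 24 h 17 fell and none rose, where 4.29% of all genes tested were called higher and 7.62% lower. The count at 24 h was 11 without siRAD21 OHT 24 h replicate 2. PCDHB11 went from 9.50 and 9.23 to 1.55 and 1.62 eRPKM at 48 h (-2.24 ± 0.21, adjusted p = 7.37e-07). At 24 h PCDHB6 fell the most, from 2.44 and 2.25 to 0.908 and 0.865 eRPKM (-1.04 ± 0.14, adjusted p = 7.55e-05). PCDHB6 was highest in siRAD21 cells without OHT, the reference here, and passed the filter through them, so its call is not independent of the filter. PCDHB5 had 10.9 and 10.9 eRPKM in siRAD21 OHT cells at 48 h, less than in any other library (-1.48 ± 0.06, adjusted p = 2.57e-10). PCDHA12 fell to 3.90 and 5.14 eRPKM (-1.10 ± 0.17, adjusted p = 7.70e-05), which was still above the 3 siCtrl libraries without OHT. The beta cluster as a whole was at 34.5% of the sum without OHT, the alpha cluster at 50.6% and the gamma cluster at 43.6%, against 44.3%, 62.3% and 49.5% in siCtrl cells. Across the 54 members, the OHT changes in siCtrl and in siRAD21 cells correlated with r = 0.54 at 24 h (rho = 0.47) and r = 0.48 at 48 h (rho = 0.45). The direction was thus shared by most members, and the size less so.

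**Figure D4:**
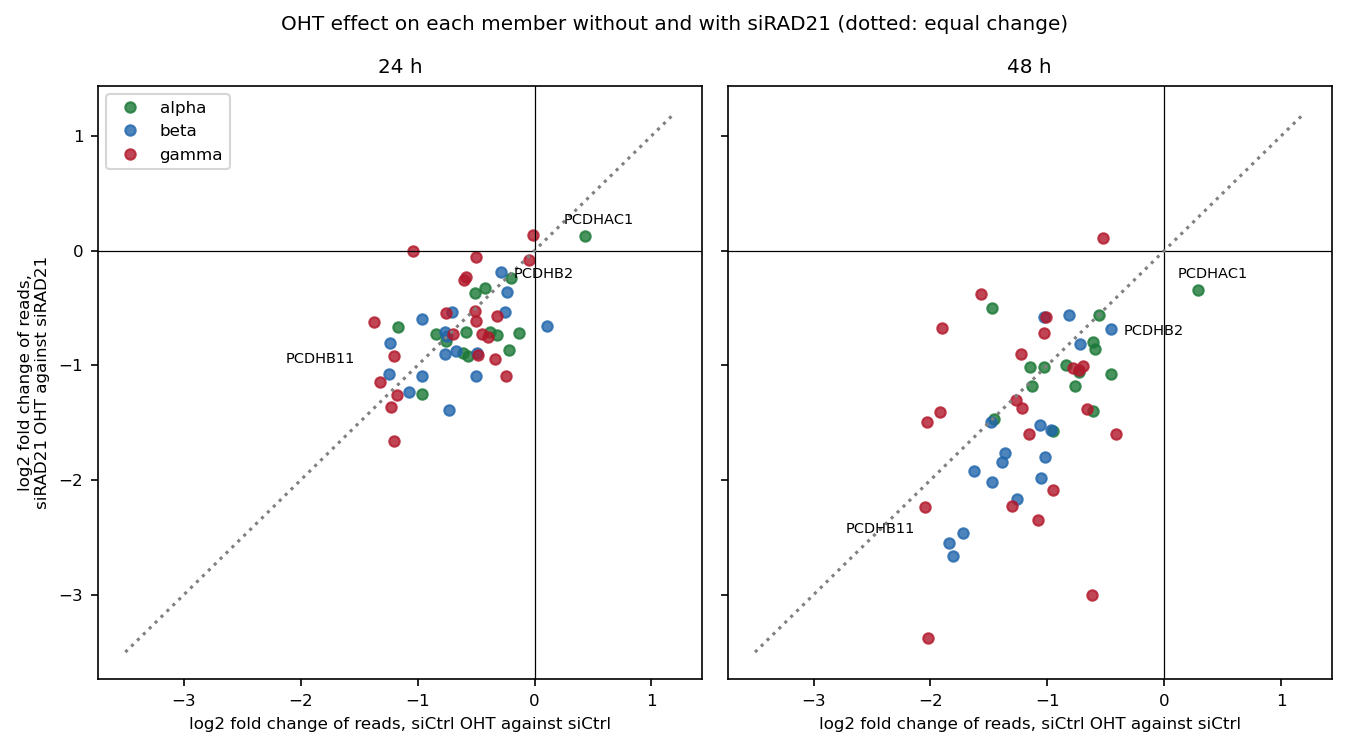
Log2 fold change of recovered reads upon OHT in siCtrl cells (horizontal axes) and in siRAD21 cells (vertical axes) for the 54 members at 24 h (left) and 48 h (right), coloured by cluster, with a dotted line of equal change. At 48 h 53 of the 54 points lie left of 0, PCDHAC1 being the exception at 0.29, and the beta points reach -2.66 in siRAD21 cells.

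Whether OHT and siRAD21 acted on each other was tested by the interaction. At 48 h 4 of 23 members were called, all with a lower OHT effect in siRAD21 than in siCtrl cells, where 3.33% of all genes tested were called higher and 3.97% lower. They were PCDHB8 (-0.72 ± 0.14, adjusted p = 0.0026), PCDHB10 (-0.71 ± 0.16, adjusted p = 0.0092), PCDHA4 (-0.60 ± 0.18, adjusted p = 0.034) and PCDHAC1 (-0.55 ± 0.14, adjusted p = 0.019). PCDHAC1 gave 3.57 and 3.64 eRPKM in siRAD21 and 2.86 and 2.82 eRPKM in siRAD21 OHT cells, lower with OHT. In siCtrl cells it gave 2.40, 2.32 and 2.91 eRPKM without and 3.10, 3.17 and 3.05 eRPKM with OHT, higher with OHT, though neither change was past the fold threshold by itself. With the siRAD21 OHT 48 h libraries averaged, PCDHB8 and PCDHB10 remained and PCDHA4 and PCDHAC1 did not. PCDHA4 was also lost without siCtrl 48 h replicate 1 or siCtrl OHT 48 h replicate 2 or 3, and PCDHAC1 without siCtrl 48 h replicate 2 (-0.50). There were 2 calls left without either siRAD21 48 h or either siRAD21 OHT 48 h library. At 24 h no member and none of the 14993 genes was called by limma, with 2 of 23 members and 906 of all genes at an unadjusted p under 0.05, and voom on the reads called 11 of 22033 genes and no member.

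Of 18 regulators of these clusters and of cohesin, 1 rose and 3 fell with siRAD21 at 48 h, where 12.6% of all genes tested were called higher and 11.2% lower, and apart from the silenced gene the count was near those shares: MAU2, which helps load cohesin, rose (0.51 ± 0.07, adjusted p = 1.55e-05), and besides RAD21 itself (-2.99 ± 0.05, adjusted p = 2.84e-14) the DNA methyltransferases DNMT1 (-0.52 ± 0.06, adjusted p = 3.33e-06) and DNMT3B (-0.57 ± 0.06, adjusted p = 1.73e-06) fell. CTCF, whose binding element the promoters carry, had 41.7 ± 0.885 eRPKM (SD, n = 3) in siCtrl and 31.0 ± 0.692 eRPKM (SD, n = 2) in siRAD21 cells, a change of -0.42 ± 0.04, adjusted p = 2.18e-06 that passed on p and not on size, and at 24 h -0.39 ± 0.05. Of 12 protocadherins outside the clusters 6 entered the test. PCDH7 rose at 48 h (1.69 ± 0.14, adjusted p = 2.70e-07), and PCDH18 (-1.18 ± 0.10, adjusted p = 3.09e-07) and PCDH8 (-0.57 ± 0.18, adjusted p = 0.013) fell. PCDH8 had means of 0.803 eRPKM in siCtrl and 0.386 eRPKM in siRAD21 cells, both under the filter of 1 eRPKM. It passed the filter only through the OHT groups, so its call is not independent of it. Of 10 tested partners in protocadherin signalling, beside the same shares of all genes, the kinase PTK2B (0.80 ± 0.11, adjusted p = 2.05e-05) and CYFIP2, of the WAVE complex that remodels actin (0.91 ± 0.06, adjusted p = 1.25e-08), rose, and PRKCA fell (-1.46 ± 0.07, adjusted p = 1.21e-09).

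Of 27 tested neighbours within 500 kb, PCDH1 among them, 3 rose with siRAD21 at 48 h and 1 fell, where 12.6% of all genes tested were called higher and 11.2% lower, with a list median of -0.06, and at 24 h none was called, where 5.83% of all genes tested were called higher and 2.60% lower. TAF7, a subunit of the general transcription factor TFIID that lies inside the region between beta and gamma, was at -0.08 ± 0.05, adjusted p = 0.24 at 48 h. RELL2, beyond the gamma cluster, rose (0.69 ± 0.09, adjusted p = 1.12e-05), as did FCHSD1 (0.59 ± 0.07, adjusted p = 9.72e-06) and, before the alpha cluster, APBB3 (0.57 ± 0.10, adjusted p = 1.77e-04), while SLC35A4 fell (-0.68 ± 0.06, adjusted p = 3.05e-07). Upon OHT at 48 h in siCtrl cells 2 of the 27 neighbours rose and none fell, where 7.78% of all genes tested were called higher and 10.1% lower, with a median of 0.17. The counts of neighbours called higher were near those shares and are no result about the region.

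Since protocadherins are best known from neurons, 5 neuron markers were followed. All were read in these cells, and 4 of them, MAP2, RBFOX3, SNAP25 and SYP, rose with siRAD21 at 48 h by 0.89, 0.76, 0.61 and 0.65, while TUBB3 fell (-0.68 ± 0.07, adjusted p = 9.40e-07). In that comparison 12.6% of all genes tested were called higher and 11.2% lower, and the list was not tested as a set. The summed level of the neuron markers was 61.7 to 61.8 eRPKM in siCtrl and 73.0 to 78.4 eRPKM in siRAD21 cells at 48 h, and with OHT it was 55.9 to 57.0 and 72.1 to 72.6 eRPKM. At 24 h only MAP2 was called (0.52 ± 0.14, adjusted p = 0.011), where 5.83% of all genes tested were called higher and 2.60% lower. MAP2, SNAP25 and SYP also rose with siRAD21 under OHT at 48 h, TUBB3 fell there too, and under OHT at 24 h SNAP25 was called higher. Under OHT the shares of all genes called higher and lower with siRAD21 were 8.47% and 7.74% at 48 h, and 3.74% and 2.73% at 24 h. The part of these markers in the protocadherin results was not tested. None of the 5 tested osteoblast and mesenchymal markers and none of the 3 epithelium markers was called with siRAD21 without OHT, or with siRAD21 under OHT at 24 h. Under OHT at 48 h ALPL (-0.95), RUNX2 (-0.85), CDH1 (-0.58) and EPCAM (-0.66) fell with siRAD21. Upon OHT these markers moved as well, beside the fall of the protocadherins: at 48 h COL1A1 and RUNX2 fell and EPCAM rose, with changes of -0.91, -0.84 and 1.22 in siCtrl cells and of -1.84, -1.33 and 1.05 in siRAD21 cells, and at 24 h RUNX2 fell and EPCAM rose in both. Of the neuron markers, RBFOX3 rose and SNAP25 fell upon OHT in siCtrl cells at 48 h, MAP2 and TUBB3 fell in siRAD21 cells at 48 h, and RBFOX3 rose in both at 24 h. Upon OHT at 48 h 7.78% of all genes tested were called higher and 10.1% lower in siCtrl cells, and 12.4% and 16.2% in siRAD21 cells. At 24 h these shares were 3.68% and 5.10% in siCtrl cells and 4.29% and 7.62% in siRAD21 cells. The summed osteoblast and mesenchymal markers stood at 237 to 278 eRPKM without and 209 to 233 eRPKM with OHT in siCtrl cells at 48 h, and at 268 to 269 and 215 to 217 eRPKM in siRAD21 cells. The epithelium markers summed to 73.8 to 76.2 and 84.0 to 90.7 eRPKM in siCtrl cells, and to 70.3 to 75.4 and 81.4 to 83.2 eRPKM in siRAD21 cells. Their part in the OHT results was not tested.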

How the data were processed

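The deposited table holds RPKM values over exons (eRPKM) of 23399 genes in 18 libraries, all assigned to groups by the labels. Per the authors' methods and processing notes, 50-base reads were quality-masked, aligned to hg19 (GRCh37) with TopHat2 2.0.8, cleared of PCR duplicates and counted over exons (featureCounts 1.4.5). Raw counts were not used here. Since 1 read has a fixed worth in each gene and library, whole reads were recovered, within 0.001 reads, for 22033 of the 22040 genes above 0. They add up to 99.906% to 99.924% of the depth of a library, which was 9647501 to 12678599 reads. Counts at this depth limit the precision of members with few reads, and these limits cover counting error only.

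The main test was limma 3.58.1 (R 4.3.3) on log2(eRPKM + 0.5), fitted to all 18 libraries with 8 group means, a variance trend and Benjamini-Hochberg adjustment over the 14993 genes with a mean of at least 1 eRPKM. A fold change is on the log2(eRPKM + 0.5) scale, which understates changes of low genes. Values in parentheses are the log2 fold change ± its standard error. limma-voom on the recovered reads of 22033 genes, with the same thresholds, was chosen as an alternative after the table was examined. The tests were tried on simulated data first. Tables and figures were made with matplotlib 3.10.9, numpy 2.4.6 and pandas 2.3.3 under Python 3.11.15.

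Named with values were the 5 members of each cluster with the highest mean, the C-type and pseudogene members, and the called members with the largest change in each direction or against the majority. Other members named were chosen after their values were seen. The members and gene lists were chosen with earlier results of these data known. Replicate numbers of the siCtrl and siCtrl OHT libraries at 48 h deviated together, with correlations of 0.26, 0.13 and 0.16 of same-numbered libraries, and a block on the number was tried. Where the pairing comes from is not in the labels. Other alternatives changed the pseudocount, filter, scaling, fold threshold, samples in the fit and single libraries.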

Additional observations from a re-analysis of the deposited data

Results flagged for a closer look

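The effect of OHT at 48 h differed between siCtrl and siRAD21 cells in 4 members, by the interaction term of limma. The difference, siRAD21 minus siCtrl, was -0.60 for PCDHA4, -0.55 for PCDHAC1, -0.71 for PCDHB10 and -0.72 for PCDHB8 on the log2 scale. PCDHA4 fell upon OHT by 1.31 in siRAD21 and 0.71 in siCtrl cells, PCDHB10 by 2.08 and 1.36, and PCDHB8 by 1.71 and 0.98. PCDHAC1 had an OHT effect of -0.30 in siRAD21 and 0.25 in siCtrl cells.

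The effect of siRAD21 differed between 48 and 24 h in 7 members, by the difference of the effects in limma. It was -0.65 for PCDHAC2, -0.71 for PCDHB12, -0.63 for PCDHB14, -0.78 for PCDHB18P, -0.59 for PCDHB8, -0.73 for PCDHGA4 and -0.87 for PCDHGB1. PCDHAC2 was called higher at 24 h (0.64) and was at -0.01 at 48 h, and PCDHGB1 was at 0.01 at 24 h and was called lower at 48 h (-0.86). No group had 4 or more libraries, so single libraries were not examined for extreme values.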

How the results depend on the processing

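Over the 12 comparisons, 321 counts of called members under alternatives were within 1.5 times the reported count and 39 were not, and no named member's siRAD21 effect at 48 h changed sign while called, with 519 of 540 values on the same side of the thresholds, 12 newly past them, 7 no longer past them and 2 moved. Voom on the reads of all genes, which adds the low members, gave 18, 36, 9, 27, 20, 44, 27 and 43 calls for siRAD21 at 24 and 48 h, siRAD21 under OHT at 24 and 48 h, OHT in siCtrl at 24 and 48 h and OHT in siRAD21 cells at 24 and 48 h, 17 for the siRAD21 effect at 48 h minus 24 h and 25 for siCtrl at 48 h against 24 h. With all genes above 0 in the main test there were 29 calls for siRAD21 at 48 h, 21 for siRAD21 under OHT at 48 h, 36 for OHT in siCtrl at 48 h, 15 for the siRAD21 effect at 48 h minus 24 h and 16 for siCtrl over time. These 2 alternatives test more members by construction. For siRAD21 at 24 h, voom at the main filter gave 10 and no fold threshold 11. Quantile normalization gave 2 for siRAD21 under OHT at 24 h, 10 for OHT in siRAD21 at 24 h and 2 for the interaction at 48 h, for which averaging the siRAD21 OHT 48 h libraries also left fewer calls. For the siRAD21 effect at 48 h minus 24 h, a fit of only the groups compared gave 4 and a pseudocount of 0.1 gave 4, and for siCtrl over time a pseudocount of 1 gave 2. The cause of these moves was not tested.

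Leaving out single libraries gave 4 to 9 calls for siRAD21 at 24 h, 13 to 14 at 48 h, 2 to 4 and 11 to 13 under OHT, 7 to 12 and 18 to 20 for OHT in siCtrl at 24 and 48 h, 11 to 17 and 19 to 22 in siRAD21 cells, 0 to 0 and 2 to 4 for the interaction, 2 to 7 for the siRAD21 effect at 48 h minus 24 h and 3 to 7 for siCtrl over time. The lowest counts came without siCtrl OHT 24 h replicate 2 (siRAD21 under OHT at 24 h, OHT in siCtrl at 24 h), siRAD21 OHT 24 h replicate 2 (OHT in siRAD21 at 24 h), any of the 4 siRAD21 48 h and siRAD21 OHT 48 h libraries (interaction), siCtrl 48 h replicate 3 (siCtrl over time), and siCtrl 24 h replicate 1, siCtrl 48 h replicates 2 and 3 or any siRAD21 library (siRAD21 effect at 48 h minus 24 h). The replicate block left 19 calls for OHT in siCtrl at 48 h. In other comparisons the samples share only a number, and with the block PCDHGC3 in siRAD21 at 48 h, PCDHB11 in siRAD21 under OHT at 24 h, and PCDHAC2 and PCDHB18P in the siRAD21 effect at 48 h minus 24 h were not called. With the siCtrl 24 h numbers crossed, after correlations of -0.13 and -0.17 with the siCtrl OHT and siRAD21 OHT libraries at 24 h, the block gave 6 calls for siRAD21 and 12 for OHT in siCtrl at 24 h, and between 0 and 20 elsewhere. Depth limited the members under 1 eRPKM, most of them gamma genes.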
